A study of Rattus norvegicus with 24 samples.

Results

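The genes described here were 6 of the 32883 genes listed in the RNA-seq count table of maternal rat kidney, chosen by name and identifier as genes of the double-stranded RNA response and their partners: Oas1a (ENSRNOG00000001369), Oas2 (ENSRNOG00000049282), Eif2ak2 (ENSRNOG00000048315), Adar (ENSRNOG00000020744), Parp9 (ENSRNOG00000023463) and Helz2 (ENSRNOG00000013267). All 6 passed the filter on low counts and were among the 14212 genes tested. They were picked with results of these libraries known, so their counts of changed genes describe the genes and do not test the choice.

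The study asked how the kidney adapts to pregnancy in 2 strains. The outbred Sprague Dawley rat (CD) served as the model of normal pregnancy. Pregnancies of the inbred Brown Norway rat (BN) have mild features of preeclampsia, without glomerular endotheliosis. The study states that this limits the use of the strain for work on preeclampsia. Each group held 3 female rats, and the groups were non-pregnant CD rats (CD-NP), CD rats at pregnancy day 18 (CD-P18), non-pregnant BN rats (BN-NP) and BN rats at pregnancy day 18 (BN-P18). The rats were 2 months old by their age label and 6 to 8 weeks old by the growth protocol. Ribosome-depleted total RNA came from whole kidney cross-sections that hold cortex and medulla. Each BN rat belongs to the same inbred line, so the BN groups stand for 1 genotype. In such bulk tissue a change in the number of cells that make a transcript and a change in transcript per cell cannot be told apart.

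Double-stranded RNA forms during the replication of many viruses and also from a cell's own repeats and mitochondrial transcripts. Cells sense it with several proteins that are themselves induced by interferon: oligoadenylate synthetases make a short nucleotide second messenger, the kinase PKR stops translation by phosphorylating eIF2alpha, and the editing enzyme ADAR1 converts adenosines to inosines and so keeps the cell's own duplexes from setting off these sensors. PARP9 and HELZ2 are interferon-induced proteins of another kind, a member of the PARP family that works with the ubiquitin ligase DTX3L, and a large helicase first described as a coactivator of nuclear receptors.

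The libraries held 8274159 to 11879451 reads counted on genes, and levels are given as CPM, the reads of a gene scaled to library size. The kidney label was checked on marker genes: the summed level of the 3 proximal tubule markers with an identifier was 1859 to 3676 CPM in the 12 libraries and that of the 3 podocyte markers 545 to 887 CPM. Marker sums differed between groups. Proximal tubule markers had 2866 to 3676 CPM in CD-NP and 2129 to 2754 CPM in CD-P18 rats, and 2407 to 2969 and 1859 to 2499 CPM in BN-NP and BN-P18 rats. The 3 endothelium markers with an identifier had 177 to 188 and 141 to 162 CPM in CD-NP and CD-P18 rats, and 184 to 200 and 166 to 177 CPM in BN-NP and BN-P18 rats. Podocyte markers had 679 to 887 CPM in CD-NP and 545 to 610 CPM in CD-P18 rats, and 698 to 756 and 615 to 697 CPM in BN-NP and BN-P18 rats. The 4 collecting duct markers with an identifier had 756 to 920 CPM in CD-NP and 566 to 663 CPM in BN-NP rats. Whether the sections differed in cortex and medulla content was not tested. Transcript lengths were not used, so levels are compared between rats and not between genes.

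A promoter sequence was at hand for 4 of the 6 genes, Oas1a, Eif2ak2, Parp9 and Helz2, and they are shown because the genes moved together in pregnancy and interferon acts on its targets through short motifs near the start. The sequences are the 250 bases before the annotated start in RefSeq (build GRCr8), 5′ to 3′ on the strand of the gene. Capitals mark matches to the core of the interferon-stimulated response element (ISRE), spelled here as GAAANNGAAA.
Oas1a, chr12:41330216-41330465, plus strand: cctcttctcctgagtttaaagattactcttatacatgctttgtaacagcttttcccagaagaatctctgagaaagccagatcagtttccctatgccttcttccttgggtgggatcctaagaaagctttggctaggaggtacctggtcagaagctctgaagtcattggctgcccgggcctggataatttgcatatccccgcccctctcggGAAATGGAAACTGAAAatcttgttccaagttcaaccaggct
Eif2ak2, chr6:21940904-21941153, plus strand: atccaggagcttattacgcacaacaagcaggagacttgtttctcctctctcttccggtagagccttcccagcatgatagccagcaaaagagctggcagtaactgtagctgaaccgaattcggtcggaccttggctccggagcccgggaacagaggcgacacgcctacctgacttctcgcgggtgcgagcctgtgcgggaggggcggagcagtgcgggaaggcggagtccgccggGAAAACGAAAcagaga
Parp9, chr11:78319012-78319261, minus strand: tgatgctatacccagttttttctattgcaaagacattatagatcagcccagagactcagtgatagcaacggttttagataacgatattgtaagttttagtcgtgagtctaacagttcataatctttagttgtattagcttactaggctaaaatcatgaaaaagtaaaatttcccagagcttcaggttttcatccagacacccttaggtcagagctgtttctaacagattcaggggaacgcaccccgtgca
Helz2, chr3:188730717-188730966, minus strand: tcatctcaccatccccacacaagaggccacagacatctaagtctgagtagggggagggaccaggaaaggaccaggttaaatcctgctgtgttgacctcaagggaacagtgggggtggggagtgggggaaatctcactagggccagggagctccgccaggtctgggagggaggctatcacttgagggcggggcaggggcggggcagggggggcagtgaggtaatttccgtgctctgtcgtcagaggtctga

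Oas1a held a pair of overlapping ISRE cores, GAAATGGAAA at 41 to 32 bases before the start and GAAACTGAAA at 35 to 26 bases before it. Eif2ak2 held 1, GAAAACGAAA, at 16 to 7 bases before the start. The windows of Parp9 and Helz2 held none on either strand. Over all 33469 promoters of 300 bases (250 before and 50 after the start), 3.92% held an ISRE core on either strand. The core of the gamma-activated site, TTCNNNGAA, had 1 match among the 4 genes, TTCCCAGAA in Oas1a at 199 to 191 bases before the start, against 8.87% of all promoters. A match is a description of these letters and not a bound site.

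All 6 genes were upregulated at P18 in both strains, and in both strains every P18 rat lay above every NP rat. The rise was largest for the synthetases, 4.49-fold for Oas1a and 5.36-fold for Oas2 in CD rats and 3.68-fold and 4.07-fold in BN rats. It was 1.95-fold and 1.67-fold for Eif2ak2, 1.6-fold and 1.56-fold for Adar, 2.05-fold and 1.64-fold for Parp9, and 1.45-fold and 1.6-fold for Helz2, in CD and BN rats respectively. A gene was called a DEG at an adjusted p under 0.1 and a log2 fold change over 0.32 in size. By that rule 2.56% of all tested genes were upregulated in CD rats, 0.823% in BN rats, 0.436% in both and 1.72% when the change was averaged over the strains, against 6 of 6 here in each case. A complete separation of P18 from NP rats in both strains was found in 1.51% of all tested genes. The median log2 fold change of the 6 genes was 1 in CD and 0.72 in BN rats.

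**Figure D1:**
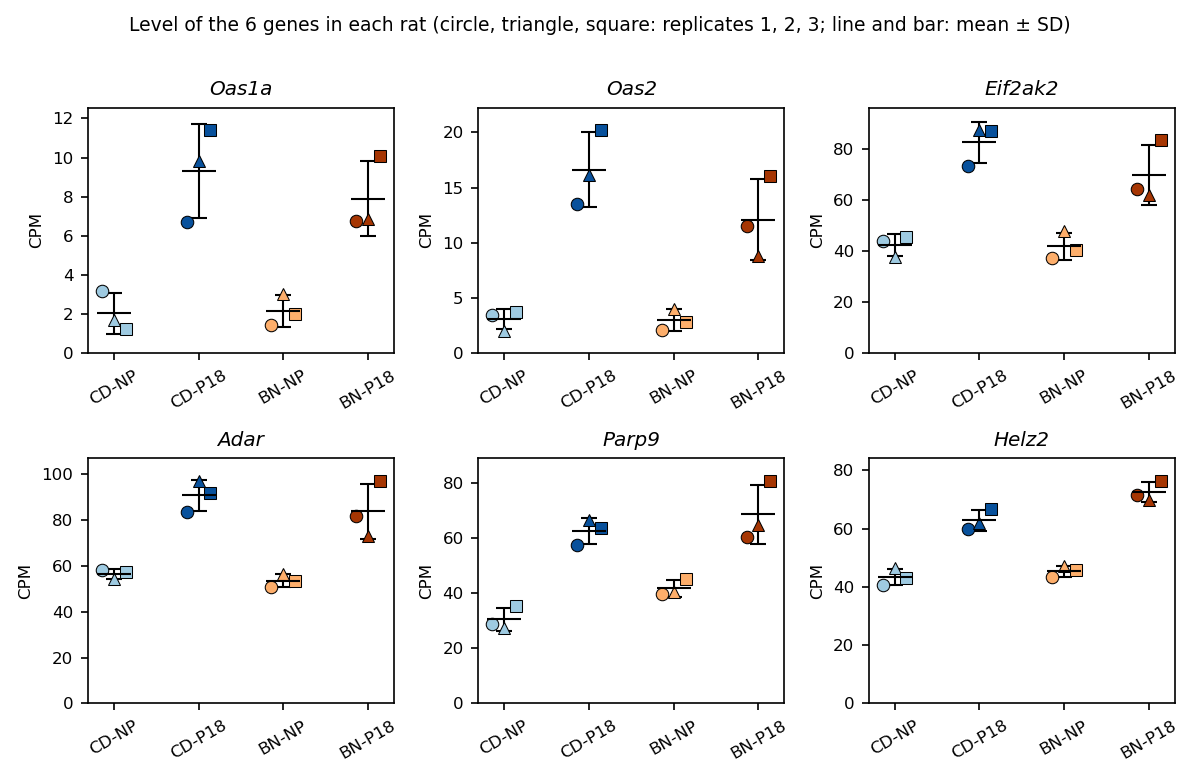
Level of each gene in CPM (vertical axis, from 0) in the 4 groups of 3 rats. Circles, triangles and squares are replicates 1, 2 and 3, and the line and bar give the mean ± SD. In each of the 6 panels the P18 rats of a strain lie above all NP rats of that strain.

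Oas1a encodes an oligoadenylate synthetase, which is activated by double-stranded RNA. It had 3.19, 1.69 and 1.21 CPM in the CD-NP rats and 6.69, 9.81 and 11.4 CPM in the CD-P18 rats. In BN rats it had 1.41, 3.04 and 2 CPM without pregnancy and 6.76, 6.84 and 10.1 CPM at P18. The lowest pregnant rat stood above the highest non-pregnant rat of its strain by 2.09 times in CD and 2.22 times in BN. The means were 2.03 ± 1.04 and 9.3 ± 2.4 CPM in CD and 2.15 ± 0.825 and 7.9 ± 1.9 CPM in BN (SD, n = 3). The log2 fold change was 2.17 (SE 0.34) in CD and 1.88 (SE 0.35) in BN, with adjusted p = 0.0045 and 0.0322 in edgeR's quasi-likelihood test, Benjamini-Hochberg adjusted. These levels rest on few reads, 11 to 33 a library without pregnancy and 63 to 112 at P18. In the CD-NP group the rats varied by 51.1% (coefficient of variation), where counting alone gives 24.2%. The BN call was lost without BN-NP replicate 1 (log2 fold change 1.65, adjusted p = 0.156) and without BN-P18 replicate 3 (1.67, adjusted p = 0.106) in the same edgeR quasi-likelihood test. Oas1a has neighbours of the same family in the rat genome, where RefSeq places Oas1i and Oas1d on one side and Oas1h, Oas1f, Oas1b and Oas1e on the other. How alike their sequences are was not measured. Reads that fit several of them would not be counted, so the level of Oas1a is uncertain.

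Oas2, a larger synthetase of the same family, showed the largest rise of the 6 genes in both strains. Its levels were 3.48, 2 and 3.73 CPM in CD-NP rats and 13.5, 16.1 and 20.2 CPM in CD-P18 rats. The BN-NP rats had 2.07, 4.02 and 2.84 CPM and the BN-P18 rats 11.5, 8.75 and 16 CPM. The gap between the stages was wide in both strains, the lowest P18 rat standing 3.61 times above the highest NP rat in CD and 2.18 times in BN. Group means went from 3.07 ± 0.932 to 16.6 ± 3.39 CPM in CD and from 2.98 ± 0.982 to 12.1 ± 3.69 CPM in BN (SD, n = 3). By edgeR's quasi-likelihood test, Benjamini-Hochberg adjusted, the log2 fold change was 2.42 (SE 0.29, adjusted p = 0.000832) in CD and 2.03 (SE 0.3, adjusted p = 0.00826) in BN. Of the 14212 tested genes, 11 had a larger log2 fold change than Oas2 in CD and 7 in BN. Libraries held 19 to 36 Oas2 reads without pregnancy and 96 to 198 at P18.

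The other synthetases and regulators of their pathway were taken as a list of 14 genes, of which 4 had an identifier. The identifiers came from genes that passed an unadjusted p in some comparison of these libraries, so a list with identifiers leans towards genes that changed. In CD rats all 4 were upregulated and in BN rats 2, with median log2 fold changes of 1.44 and 1.39, against −0.01 to 0.01 over all tested genes in the comparisons made. All 4 had an unadjusted p under 0.05 in BN rats in edgeR's test. Of all tested genes, 2.56% were upregulated in CD and 0.823% in BN. Oasl and Oasl2, which belong to the family but are less alike in sequence, rose in both strains (log2 fold change 1.45 and 1.13 in CD, 1.93 and 1.1 in BN). Oas1b, the homologue of a mouse gene for resistance to flaviviruses, rose in CD (1.92) and was not called in BN (1.22, adjusted p = 0.15 in edgeR's quasi-likelihood test, Benjamini-Hochberg adjusted). Without pregnancy it was already called higher in BN than in CD rats (log2 fold change 1.42), at 9.09 ± 3.84 and 3.35 ± 1.64 CPM (SD). At P18 it had 21.1 ± 8 CPM in BN and 12.8 ± 2.93 CPM in CD rats, without a call. Oas3 was likewise called in CD (1.44) and not in BN (1.55), at 0.885 to 2.68 CPM in the group means.

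Eif2ak2 encodes PKR, the kinase that binds double-stranded RNA and phosphorylates eIF2alpha. Levels were 43.9, 37.6 and 45.6 CPM in CD-NP rats and 73.2, 87.3 and 87.1 CPM in CD-P18 rats. BN-NP rats had 37.2, 47.7 and 40.5 CPM and BN-P18 rats 64.2, 61.9 and 83.3 CPM. The NP rats of both strains covered almost the same range, and 1 BN-P18 rat, replicate 3, stood apart from the other two. Means were 42.4 ± 4.24 and 82.5 ± 8.09 CPM in CD and 41.8 ± 5.39 and 69.8 ± 11.8 CPM in BN (SD, n = 3). The log2 fold change was 0.96 (SE 0.13, adjusted p = 0.00137) in CD and 0.74 (SE 0.13, adjusted p = 0.0253) in BN by edgeR's quasi-likelihood test, Benjamini-Hochberg adjusted. Without BN-NP replicate 1 the BN value was 0.66 and the call was lost (adjusted p = 0.137, same edgeR test).

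Partners of PKR and genes of the stress response that follows eIF2alpha phosphorylation formed a list of 16, of which 6 had an identifier. In CD rats 2 of the 6 were upregulated, Ppp1r15b, which directs a phosphatase to eIF2alpha (log2 fold change 0.41), and Asns, the asparagine synthetase (0.84). Neither was called in BN rats (−0.06 and 0.16), where edgeR's test called 0 of the 6 and 1 had an unadjusted p under 0.05. The list had median log2 fold changes of 0.22 and 0.08, and of all tested genes 2.56% were upregulated in CD and 0.823% in BN rats. Atf4, the transcription factor at the centre of that response, had 0.29 in CD and −0.09 in BN and was not called in either. Atf3, one of its targets, had −0.48 in CD and 1.27 in BN without a call, and at P18 it was higher in BN than in CD rats (log2 fold change 1.55). Between the non-pregnant groups, edgeR's test called 2 of the 6 genes higher in BN than in CD rats and 1 lower. Of all tested genes, 3.83% were higher in BN-NP rats and 4.55% lower. Listed genes with an identifier lean towards changed genes, so the count is not a result about the list. Asns was higher (log2 fold change 1.26), at 34.4 ± 8.1 CPM in BN-NP and 14.3 ± 0.219 CPM in CD-NP rats (SD). At P18 it had 38.3 ± 1.45 CPM in BN and 25.8 ± 10 CPM in CD rats. Atf4 was higher too (0.56), at 140 and 95.2 CPM, and Prkra lower (−0.41). For Asns and Atf4, no call in BN thus does not mean a lower level there. Eif2s1, the gene of eIF2alpha itself, had no identifier here.

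Adar encodes the adenosine deaminase ADAR1. It had 58.2, 54 and 57.3 CPM in CD-NP rats and 83.3, 97 and 91.5 CPM in CD-P18 rats. In BN rats the levels were 50.6, 56.5 and 53.5 CPM without pregnancy and 81.5, 73 and 96.7 CPM at P18. The non-pregnant rats lay close together, in nearly the same range for both strains, and the BN-P18 rats were the most spread. Means were 56.5 ± 2.22 and 90.6 ± 6.88 CPM in CD and 53.5 ± 2.96 and 83.7 ± 12 CPM in BN (SD, n = 3). The log2 fold changes of 0.68 (SE 0.1) in CD and 0.65 (SE 0.1) in BN were the most alike of the 6 genes, with adjusted p = 0.00232 and 0.00999 in edgeR's quasi-likelihood test, Benjamini-Hochberg adjusted. The difference between them was −0.03, with a 95% interval of −0.33 to 0.26. The counts are per gene, so the interferon-induced and the constitutive forms of ADAR1 were not separated.

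Genes of RNA editing and of Z-RNA sensing were a list of 13, with identifiers for 3. Adarb1, the second editing enzyme, rose in CD (log2 fold change 0.39) and had 0.02 in BN, and at P18 it was lower in BN than in CD rats (−0.5). Zbp1, the sensor of Z-form nucleic acid that ADAR1 holds in check, had 0.43 in CD without a call and rose in BN (1.35). Its level went from 2.29 ± 0.941 to 5.93 ± 0.595 CPM in BN and was 4.23 ± 1.16 and 5.69 ± 0.896 CPM in CD (SD, n = 3). Mlkl, the effector of necroptosis downstream of ZBP1, had 0.08 and 0.53 and was not called. Among the 45 pathway genes with an identifier, these 3 included, edgeR's test called 0 for the interaction of pregnancy with strain. In 15 of the 45 the unadjusted p was under 0.05, a larger share than the 12.3% of all tested genes. Listed genes with an identifier lean towards changed genes.

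Parp9 encodes a PARP family member that pairs with DTX3L. The CD-NP rats had 29, 27.4 and 35.2 CPM and the CD-P18 rats 57.5, 66.6 and 63.8 CPM. In BN the values were 39.6, 40.6 and 45.3 CPM without pregnancy and 60.3, 64.6 and 80.8 CPM at P18. Parp9 was the gene of the 6 in which the strains already stood apart before pregnancy, every BN-NP rat lying above every CD-NP rat. The share of all tested genes that separate the strains in this way was not counted. Means were 30.5 ± 4.1 and 62.6 ± 4.64 CPM in CD and 41.8 ± 3.05 and 68.6 ± 10.8 CPM in BN (SD, n = 3). The log2 fold change in pregnancy was 1.04 (SE 0.12) in CD and 0.71 (SE 0.12) in BN, with adjusted p = 0.000832 and 0.0181 in edgeR's quasi-likelihood test, Benjamini-Hochberg adjusted. Without BN-NP replicate 1 the BN value was 0.67 and was no longer called (adjusted p = 0.121, same edgeR test).

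The PARP list held 15 genes with Dtx3l, of which 6 had an identifier. In CD rats 5 of these were upregulated and in BN rats 2, with median log2 fold changes of 0.67 and 0.49. Of all tested genes, 2.56% were upregulated in CD and 0.823% in BN, and genes with an identifier lean towards changed genes. RefSeq places Parp9, Dtx3l and Parp14 next to each other. Dtx3l rose in CD (0.84) and had 0.56 in BN without a call, and Parp14, a mono-ADP-ribosyltransferase, rose in both (0.83 and 0.65). Parp12, an interferon-induced member that binds RNA, rose in both strains as well (1.12 and 0.81), and Parp10 rose in CD (0.51) and was not called in BN (0.42). Parp12 and Parp10 were lower in BN-P18 than in CD-P18 rats (log2 fold change −0.49 and −0.32), whereas Parp9 was not called there.

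Helz2 encodes a helicase with nuclear receptor coactivator activity. It had 40.6, 46.3 and 43.2 CPM in CD-NP rats and 59.8, 61.9 and 66.7 CPM in CD-P18 rats. The BN-NP rats had 43.3, 47 and 45.9 CPM and the BN-P18 rats 71.6, 69.7 and 76.4 CPM. The rats of a group lay close together. Variation between rats was 4.21 to 6.57% in the 4 groups, near the 3.74 to 4.96% of counting alone. The log2 fold change was 0.53 (SE 0.07, adjusted p = 0.002) in CD and 0.68 (SE 0.07, adjusted p = 0.00166) in BN by edgeR's quasi-likelihood test, Benjamini-Hochberg adjusted. Helz2 had the smallest rise of the 6 genes in CD and the smallest SE in both strains, and by p it ranked 3 of all tested genes in BN. None of the 7 listed relatives and nuclear receptor partners of HELZ2, Ppara included, had an identifier.

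**Figure D2:**
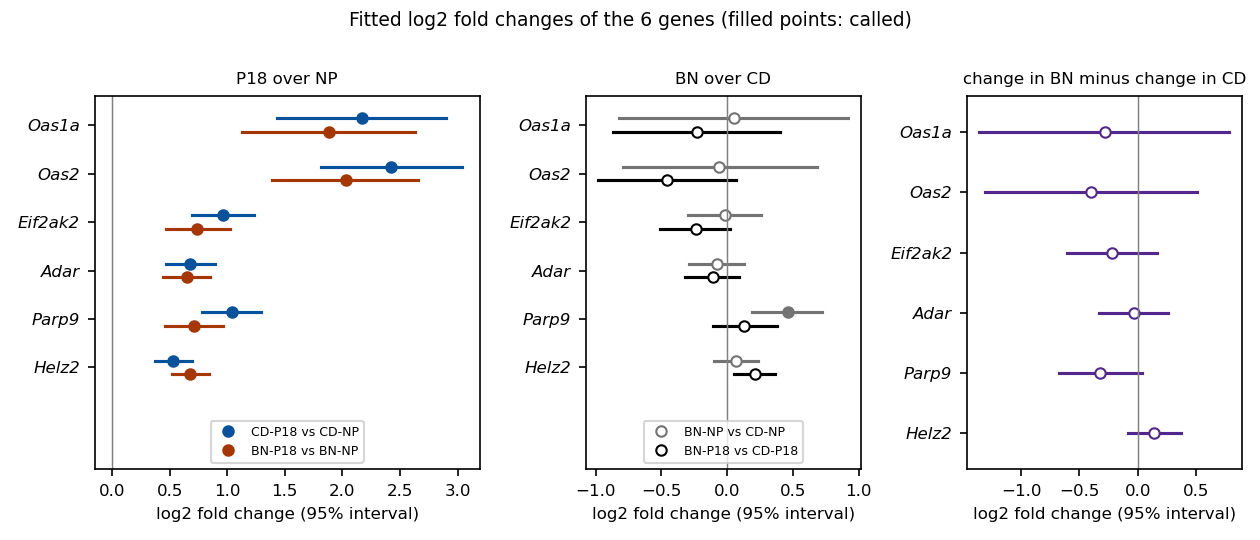
Fitted log2 fold changes (horizontal axes) of the 6 genes with 95% intervals: pregnancy in each strain on the left, BN over CD at each stage in the middle, and the change in BN minus the change in CD on the right. Filled points were called, which holds for all 12 pregnancy changes and for Parp9 between the non-pregnant groups.

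The second question was whether the strains differed. Between the non-pregnant groups 1 of the 6 genes was called, Parp9, with a log2 fold change of BN over CD of 0.46 (SE 0.12, 95% interval 0.19 to 0.72, adjusted p = 0.0445, edgeR's quasi-likelihood test, Benjamini-Hochberg adjusted). Of all tested genes, 3.83% were higher in BN-NP rats by the same rule, so 1 of 6 is not a result about the genes as a group. The Parp9 call was lost without CD-NP replicate 2, BN-NP replicate 2 or BN-NP replicate 3 (adjusted p = 0.157, 0.104 and 0.142 in the same edgeR test), at log2 fold changes of 0.39, 0.47 and 0.40. The other 5 genes had values from −0.08 to 0.07. The intervals for Oas1a (−0.82 to 0.92) and Oas2 (−0.79 to 0.68) were wide, and those for Adar (−0.29 to 0.13) and Helz2 (−0.1 to 0.23) narrow.

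At P18 0 of the 6 genes were called between the strains by edgeR's quasi-likelihood test and 0 by DESeq2, and 1, Helz2, had an unadjusted p under 0.05 with edgeR. Of all tested genes, 9.6% were called in either direction. The difference was largest for Oas2, with a log2 fold change of BN over CD of −0.46 (95% interval −0.98 to 0.07), and for Eif2ak2, with −0.24 (−0.51 to 0.02). Oas1a had −0.23, Adar −0.11 and Parp9 0.13. Helz2 was 0.21 higher in BN (95% interval 0.05 to 0.36) with adjusted p = 0.104 in edgeR's quasi-likelihood test, Benjamini-Hochberg adjusted. Every BN-P18 rat lay above every CD-P18 rat for Helz2, but the share of all tested genes that separate the strains completely was not counted. Without BN-P18 replicate 3, Eif2ak2 had −0.39 and was called (adjusted p = 0.0786, same edgeR test).

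The pregnancy change itself was compared between the strains as the interaction of pregnancy with strain. Here edgeR's quasi-likelihood test and DESeq2 each called 0 of the 6 genes, and 0 of the 6 had an unadjusted p under 0.05 with edgeR. Of all tested genes, 0.943% were called in either direction by edgeR. The lowest unadjusted p was that of Parp9 (0.0742; log2 difference −0.32, 95% interval −0.68 to 0.04, adjusted p = 0.465 by the edgeR test). The interval was −1.36 to 0.79 for Oas1a, −1.31 to 0.51 for Oas2, −0.61 to 0.17 for Eif2ak2 and −0.08 to 0.37 for Helz2. A rise smaller in BN than in CD by 1 log2 unit would lie inside the interval for the synthetases and outside it for the other 4 genes, and a rise larger in BN by 1 log2 unit would lie outside all 6 intervals. The difference was negative in 5 of the 6 genes and positive in Helz2 (0.14), and the signs for Adar and Oas1a turned when single rats were left out.

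Within 3 of the groups, single rats held the same place in all 6 genes. CD-P18 replicate 1 was the lowest rat of its group in all 6 genes, BN-NP replicate 1 the lowest in all 6 and BN-P18 replicate 3 the highest in all 6. Over all tested genes those rats held these places in 33.9%, 34.1% and 33.2%. The CD-NP rats showed no such order, being highest in 2, 1 and 3 of the genes and lowest in 1, 4 and 1. CD-P18 replicates 2 and 3 were each highest in 3 genes, and BN-P18 replicates 1 and 2 lowest in 2 and 4. The 6 genes summed to 294, 339 and 341 CPM in the CD-P18 rats and to 296, 285 and 363 CPM in the BN-P18 rats, against 178, 169 and 186 CPM in CD-NP and 174, 199 and 190 CPM in BN-NP rats. Of 30 other interferon genes with an identifier, from the lists of synthetases, sensors, interferon signalling and interferon-stimulated genes, BN-P18 replicate 3 was the highest of its group in 27 and CD-P18 replicate 1 the lowest in 25, whereas BN-NP replicate 1 was the lowest in 16. Without BN-P18 replicate 3 the BN log2 fold changes were the lowest of all for Oas2 (1.77), Eif2ak2 (0.6), Adar (0.53) and Parp9 (0.58), and all 4 remained called. For Helz2 the BN values stayed between 0.64 and 0.71 whichever rat was left out.

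The genes nearest to the mean profile of the 6 were sought among all other tested genes by the root mean square distance over the 12 rats, after scaling each gene's log2 CPM to mean 0 and SD 1. The nearest was Apol9a (distance 0.176 SD), an interferon-induced apolipoprotein L gene, followed by ENSRNOG00000059097 (0.208), which had no symbol, Irf9 (0.214), a DNA-binding subunit of the factor that interferon activates, and Isg15 (0.217), a ubiquitin-like modifier. Irgm, Stat2, Lgals9, Ddx58, Slfn4 and Sp110 came next, at 0.233 to 0.273. The median distance over all tested genes was 1.362. All 10 were upregulated in both strains and 0 had a called interaction, which follows from their choice by a profile that is high at P18 in both strains. The 6 genes' own distances to their mean were 0.173 for Oas2, 0.19 for Adar, 0.196 for Eif2ak2, 0.251 for Oas1a, 0.333 for Helz2 and 0.355 for Parp9, so Parp9 and Helz2 lay farther from the shared profile than all 10 of these genes. Each gene is part of the mean its own distance is taken from.

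**Figure D3:**
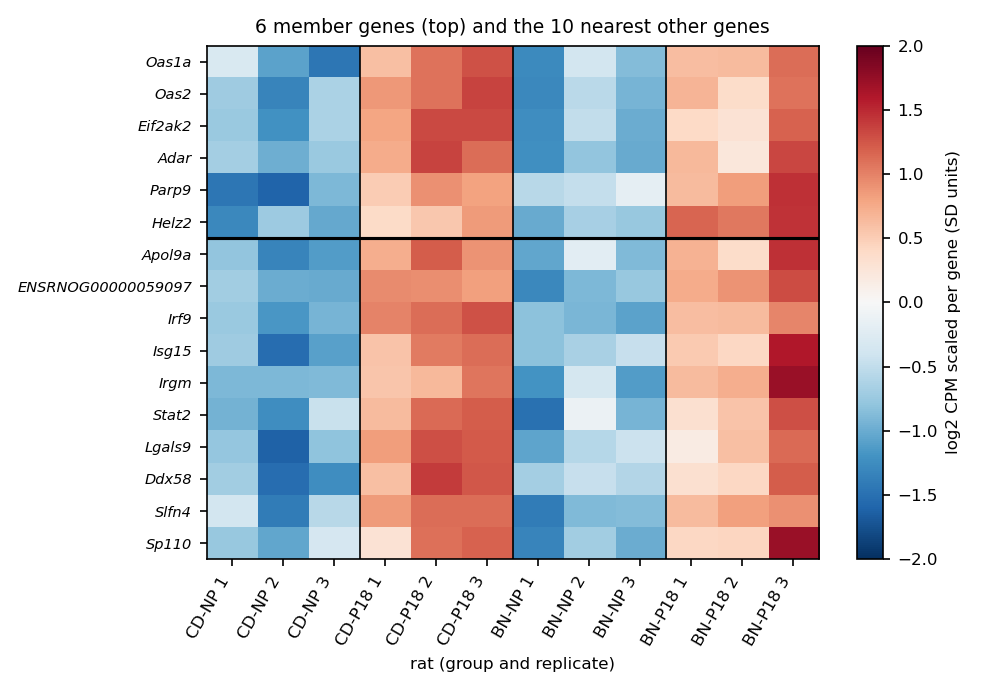
Log2 CPM scaled per gene (colour, in SD units) in the 12 rats (columns) for the 6 genes above the line and the 10 nearest other genes below it. All P18 columns are above the gene's mean (red) and all NP columns below it (blue), and BN-P18 replicate 3 is the highest BN column in each row.

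Other genes that sense double-stranded RNA or carry the signal on were a list of 11, with identifiers for 6. In CD rats 5 of the 6 were upregulated and 1 downregulated, and in BN rats 4 were upregulated. Of all tested genes, 2.56% were upregulated and 2.15% downregulated in CD, and 0.823% were upregulated in BN. Genes with an identifier lean towards changed genes, here and in the interferon lists below. The cytosolic sensors Ddx58 (RIG-I) and Ifih1 (MDA5) rose in both strains, by log2 fold changes of 1.02 and 0.85 in CD and 0.57 and 0.79 in BN. Irf7, the transcription factor that drives later waves of interferon, had 1.92 and 1.45. Trim25, the ligase that assists RIG-I, rose in CD (0.8) and had 0.41 in BN without a call. Ikbke, a kinase of the same pathway, was the gene that fell, by 0.51 on the log2 scale in CD. Of 12 interferon receptor and signalling genes 5 had an identifier and 4 rose in CD and 3 in BN, with Usp18, an inhibitor of interferon receptor signalling, at 1.99 in each strain. Of 22 other interferon-stimulated genes, 15 had an identifier, and 11 rose in CD and 13 in BN. Among them were Ifi27 (2.36 and 1.16), Ifi44 (1.74 and 1.02), Herc6 (0.89 and 1.18) and Rtp4 (1.22 and 1.97). At P18, 4 of the 15 were called higher in BN than in CD rats and 2 lower, against 9.6% of all tested genes in either direction. Ifi27 was lower (log2 fold change −1.56) and Herc6 higher (0.73) in BN. None of the 11 listed genes of interferons themselves had an identifier.

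Of 11 macrophage markers 7 had an identifier, and 6 were upregulated in CD and 2 in BN. Of all tested genes, 2.56% were upregulated in CD and 0.823% in BN. Markers with an identifier lean towards changed genes, so these counts are not a result about macrophages. The summed level of the 7 was 112 to 128 CPM in CD-NP and 166 to 201 CPM in CD-P18 rats. In BN-NP and BN-P18 rats it was 105 to 116 and 135 to 145 CPM. C1qc and C1qa rose in both strains (log2 fold change 0.88 and 0.64 in CD, 0.62 and 0.67 in BN). C1qb and Mrc1 rose in CD (log2 fold change 1.31 and 1.86) and had 0.29 and −0.22 in BN, differences of −1.02 and −2.08 that were called as interactions. By replicate, the macrophage sum was 166, 195 and 201 CPM in CD-P18 rats, where replicate 1 was also the lowest for the 6 genes, and 145, 135 and 144 CPM in BN-P18 rats, where replicate 3 was the highest for the 6 genes and not for the markers. It was 128, 112 and 112 CPM in CD-NP and 116, 106 and 105 CPM in BN-NP rats. Cd4 was the T cell marker and Irf8 the plasmacytoid dendritic cell marker with an identifier, and neither was called in pregnancy in either strain taken alone. Cd4 had log2 fold changes of 0.22 in CD and 0.45 in BN and was called when these were averaged (0.34, adjusted p = 0.0614, edgeR's quasi-likelihood test, Benjamini-Hochberg adjusted). Irf8 had −0.18 and 0.27 and was not called on average. The part of cell composition in the change of the 6 genes was not tested.

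**Figure D4:**
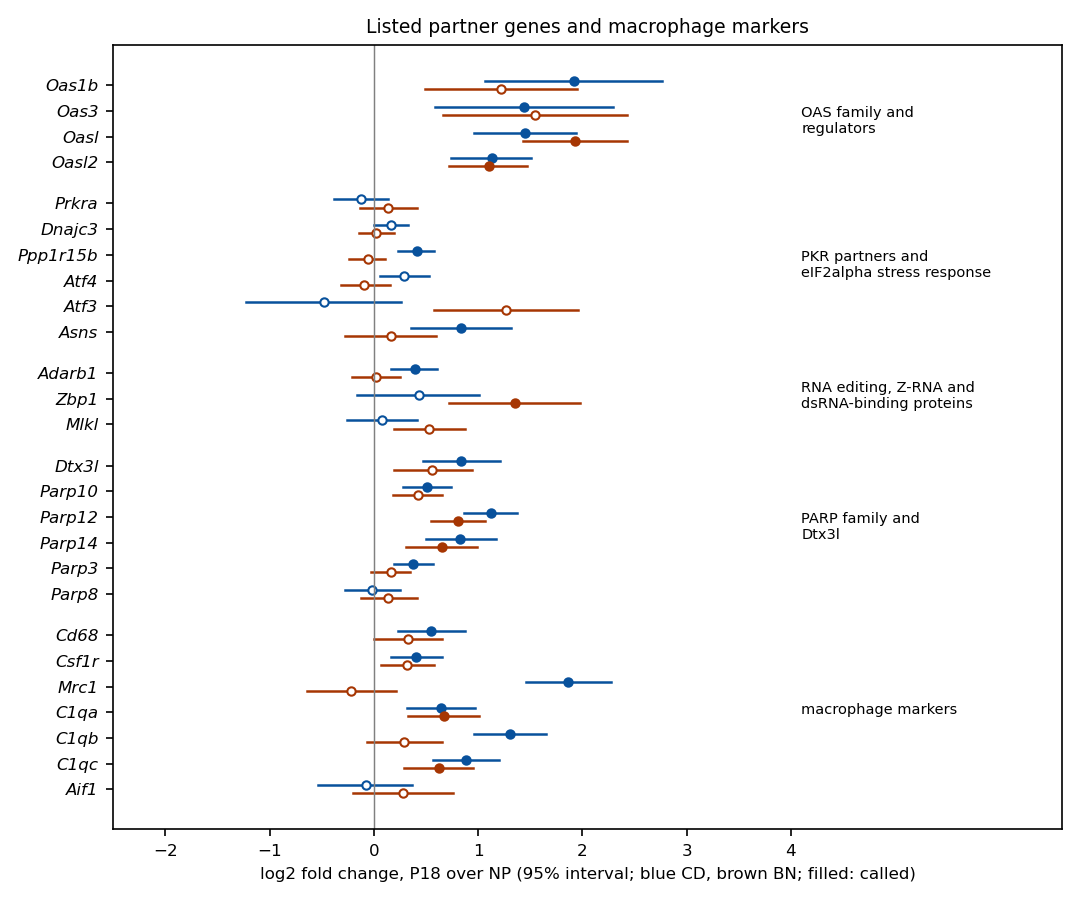
Log2 fold change of P18 over NP (horizontal axis, with 95% intervals) for the listed partner genes and the macrophage markers with an identifier, CD in blue and BN in brown, filled where called. The OAS genes and most PARP family genes lie to the right of 0 in both strains, genes of the PKR list lie on both sides of 0, and Mrc1 and C1qb were called in CD and not in BN rats.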

How the data were processed

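Kidney cross-sections of 12 rats gave the RNA-seq libraries used here, grouped from their labels. Per the labels and methods, the authors trimmed stranded, ribosome-depleted reads with Trimmomatic, aligned them to Rnor_6.0 with STAR 2.5.2, counted them per gene with HTSeq 0.6.1 and deposited raw counts. The strand setting and the annotation release are not given in the sources used here. The 5 summary lines (72.5 to 75.6% of entries) stayed out. Reads that fit several near-identical genes are lost, and reads from stretches where genes overlap may be lost too.

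R 4.3.3 with edgeR 4.0.16 gave 1 quasi-likelihood fit over 12 libraries with 4 group means (TMM scaling, filterByExpr) and Benjamini-Hochberg adjustment over 14212 genes. A gene was called where the adjusted p was under 0.1 and the fold change above 1.25, and an interaction on the adjusted p alone. In counts simulated for CD-P18 against CD-NP (14031 genes tested), changes were set in a small sample of genes that excluded those with low mean counts. Of these, 67.2% of 1.5-fold, 95.5% of 2-fold and 98.5% of 4-fold changes were recovered. Recovery was not simulated for low-count genes or for the BN comparison. For the nearest genes, log2 CPM took a prior count of 2. The count table holds no symbols, and the fold changes in the study's gene table served for pairing symbols with identifiers and for nothing else: 2988 of 3064 symbols were paired by log2 fold change and mean level within 0.01, and 6 of 6 members came out with the identifier given for them. That table is restricted to genes with a low p, so listed genes with an identifier lean towards changed genes.

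The members and lists were chosen with earlier results of these data known. The genes named were the 6 members, up to 4 genes of a list called in any comparison, taken by the smallest p of the strain-averaged pregnancy change, genes of a list with a defining role, and the 10 nearest genes. A few list genes beyond this rule (Prkra, Mlkl, Ikbke) were named after their values were seen. Alternatives were 2 other scalings, DESeq2 1.42.0, 2 other filters, stricter thresholds (adjusted p 0.05, fold 1.5), the replicate number as a block, the compared libraries alone, and each rat left out. P-values rest on the spread between rats within groups of 3, pooled over the 4 groups and moderated across genes. The bisulfite libraries were not used here, and 2 genes of the lists are not reported here.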

Additional observations from a re-analysis of the deposited data

Results flagged for a closer look

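In 3 of the marker genes used beside the 6 genes, the pregnancy change differed between the strains by the interaction term of edgeR's quasi-likelihood test, Benjamini-Hochberg adjusted. The macrophage marker Mrc1 had a difference of −2.08 on the log2 scale (adjusted p = 0.00698 by edgeR), with 5.16 ± 0.649 and 18.9 ± 1.12 CPM in CD-NP and CD-P18 rats and 7.94 ± 1.04 and 6.89 ± 1.94 CPM in BN-NP and BN-P18 rats (SD, n = 3). C1qb, another macrophage marker, had −1.02 (adjusted p = 0.0868 by edgeR), and Slc12a3, the sodium-chloride cotransporter of the distal tubule, had 0.54 (adjusted p = 0.0695 by edgeR). C1qa, which is made by the same cells as C1qb, rose by 0.64 in CD and 0.67 in BN.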

How the results depend on the processing

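The pregnancy changes of the 6 genes in CD, in BN and averaged over the strains kept their direction in all 354 recomputed values, and 5 lost the call: Helz2 in CD (0.53) under the stricter fold change, and the 4 BN values named in the report without BN-NP replicate 1 or BN-P18 replicate 3. The number of the 6 genes called in BN was 3 to 6 when a rat was left out. Between the non-pregnant groups it was 0 to 1 when a rat was left out and 0 under the stricter thresholds, and between the P18 groups 0 to 1. Values near 0 changed sign when a rat was left out: BN-NP over CD-NP for Oas2 (−0.32 to 0.15, positive at 0.05, 0.09 and 0.15), Eif2ak2 (−0.13 to 0.06, positive at 0.01, 0.03 and 0.06) and Oas1a (−0.26 to 0.55, negative at −0.07, −0.21 and −0.26), and the interaction for Adar (−0.15 to 0.06, positive at 0.01, 0.01 and 0.06) and Oas1a (−0.78 to 0.03). None of these was called, and the cause was not tested.

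Counts over all tested genes moved more. Genes called were 225 in CD, 70 in BN, 496 and 616 between strains at NP and P18, 64 for the interaction and 167 averaged under the stricter thresholds. Without a filter there were 352 in BN and 329 for the interaction (22041 genes tested), DESeq2 gave 330 for the interaction, and the compared libraries alone gave 128 in BN. With a rat left out the counts were 327 to 715 in CD, 27 to 228 in BN, 657 to 1372 and 963 to 1460 between strains, 50 to 282 for the interaction and 299 to 459 averaged. Upper-quartile scaling turned 63 higher and 71 lower interaction genes into 72 and 52, and 364 higher and 305 lower genes in CD into 315 and 361.

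Replicate numbers were not used as pairs in the main fit. Deviations of same-numbered NP and P18 rats correlated at −0.06, −0.09 and 0.1 in CD and 0.27, −0.1 and 0.2 in BN. Those of differently numbered rats correlated at −0.12 to 0.17 in CD and −0.28 to 0.1 in BN. So few values cannot show whether rats of the same number shared a batch, and this was not tested. The replicate block gave 704 genes in CD, 286 in BN (136 higher and 150 lower, against 117 and 82) and 235 for the interaction, with the same 6, 6 and 0 members called. Depth limits Oas1a and Oas2 most. The alternatives planned for CpG sites were not run, since CpGs could not be placed at these genes here.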
